A study of Mus musculus with 18 samples.

Results

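The receptors by which an activated B cell is recognised and by which it receives T cell help were followed in naive and stimulated mouse splenic B cells, separately on each parental allele. The set held 9 genes of 28374 that were matched by name between the 129 and Cast count tables: the B7-family ligands Cd80, Cd86 and Icosl, the tumour necrosis factor receptor family members Cd40 and Fas, the surface markers Cd69, Cd83 and Cd44, and the interleukin-2 receptor alpha chain Il2ra. They were chosen by their role at the B cell surface and found by gene name; the rule uses no measured value, but it was set with earlier results of these data known. RNA-seq was made from CD23+ B cells of the spleen of female F1 mice of a 129S1 and Cast cross. All samples, controls included, carried the genotype Xist+/-, and per the labels inactivation was skewed so that the inactive X was the Cast one in every cell. The naive group (n = 3) had no treatment, and the stimulated group (n = 3) was cultured with 1 µM CpG for 24 h, a synthetic DNA that activates B cells through Toll-like receptor signalling. The ages of the mice, and whether the replicates came from separate animals, are not given in the sources used here, so p-values measure only the spread between these samples. The labels name no culture without CpG for these samples, so the effects of CpG and of culture cannot be told apart. The series lists 18 samples, and 12 from a B6 and Cast cross were not analysed here.

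B cells take up antigen through their receptor and show peptides of it to helper T cells, and the outcome depends on a second exchange of signals at the cell surface. CD80 and CD86 engage CD28 and CTLA-4 on T cells, ICOSL engages ICOS, and CD40 receives the signal of CD40 ligand. CD69 holds S1PR1 inside the cell and so delays exit from lymphoid tissue, CD83 stabilises surface MHC class II and CD86, CD44 binds hyaluronan, IL2RA raises the affinity of the receptor for interleukin-2, and FAS passes on a death signal.

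All 9 genes lie on autosomes, so neither allele is silenced by X inactivation. In assembly GRCm38.p6, which is the C57BL/6 reference and not the genome of either parent strain, Cd44, Il2ra and Cd40 lie on chromosome 2 at chr2:102811141-102901669, chr2:11642792-11693194 and chr2:165055614-165071654. Cd80 and Cd86 both lie on chromosome 16, at chr16:38457430-38495958 and chr16:36568956-36666158. The others are Cd69 at chr6:129267324-129275375, Cd83 at chr13:43785112-43803133, Icosl at chr10:78069368-78079525 and Fas at chr19:34290647-34327775. In the annotation, Cd44 and Fas each overlap 1 small gene with 0 reads here, and Il2ra overlaps 1 unconfirmed model, Gm37881, that was not among the matched genes. All values are reads over whole genes.

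RefSeq promoter sequences of that assembly were matched for 5 of the 9 genes, Cd80, Icosl, Cd44, Il2ra and Fas. The 250 bases upstream of the start site are shown for the most strongly raised gene of these on both alleles together, for the gene that rose most on the 129 allele and for the gene that fell on both alleles. They stand 5′ to 3′ on the strand of the gene, and capitals mark a match to an NF-kB-type motif.
Il2ra, chr2:11642542-11642791, plus strand: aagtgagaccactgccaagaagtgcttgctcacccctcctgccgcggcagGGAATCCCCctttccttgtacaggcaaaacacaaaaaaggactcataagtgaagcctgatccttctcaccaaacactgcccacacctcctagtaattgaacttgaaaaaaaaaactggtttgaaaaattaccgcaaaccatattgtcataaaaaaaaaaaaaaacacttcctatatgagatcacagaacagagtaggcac
Cd44, chr2:102901666-102901915, minus strand: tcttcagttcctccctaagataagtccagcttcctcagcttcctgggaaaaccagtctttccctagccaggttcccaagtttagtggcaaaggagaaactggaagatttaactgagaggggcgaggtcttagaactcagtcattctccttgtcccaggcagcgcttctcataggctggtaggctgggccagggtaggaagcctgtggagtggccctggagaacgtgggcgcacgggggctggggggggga
Icosl, chr10:78069118-78069367, plus strand: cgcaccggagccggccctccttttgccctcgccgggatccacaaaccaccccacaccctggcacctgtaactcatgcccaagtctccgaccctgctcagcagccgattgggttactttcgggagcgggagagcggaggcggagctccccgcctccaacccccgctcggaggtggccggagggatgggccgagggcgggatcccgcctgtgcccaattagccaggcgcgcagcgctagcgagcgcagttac
On both strands, 3 patterns were searched: NF-kB-type GGNNNTTCC, AP-1 TGANTCA and STAT-type TTCNNNGAA. Of all 32807 promoters of the same length, 15.7% held the NF-kB-type pattern, 6.75% the AP-1 pattern and 7.02% the STAT-type pattern. Il2ra held 1 NF-kB-type match, starting at -200 relative to the start site. The bases just after this start site were not found in the annotated transcripts of Il2ra, while those of Cd80, Icosl, Cd44 and Fas were. Cd44 and Icosl, which moved in opposite directions, held none of the 3 patterns in this window. Cd80 held an NF-kB-type match at -209 and an AP-1 match at -42, in a window (chr16:38458683-38458932) that lies inside the gene span given above. Fas held an AP-1 match at -211 and a STAT-type match at -93. These are matches of letters in the reference, not measured binding sites.

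Each sample had 1987266 to 2928236 reads in genes in its 129 table and 2465073 to 3321753 in its Cast table. Levels are given as CPM, the reads of a gene scaled to the library size of the table of that allele after trimmed mean (TMM) scaling. Markers of the labelled cell type were present: the 11 measured B cell genes, among them Ms4a1, Cd79a and Cd79b, summed to 14073 CPM, 16533 CPM and 14158 CPM in the naive samples and to between 4814 CPM and 5845 CPM after stimulation, with 10 of 11 lower by the test. Fcer2a, which encodes CD23, fell from 518 ± 186 CPM to 20.6 ± 2.29 CPM over both alleles (SD, n = 3). Markers of macrophages were also present in the naive samples, at a sum of 8419 CPM, 3948 CPM and 5220 CPM over 19 genes. In the stimulated samples they summed to 46.4 CPM, 34.5 CPM and 43.5 CPM, and 18 of 18 tested were lower. These marker levels moved with the groups in every comparison below, and in bulk RNA fewer cells of a type and less RNA per cell cannot be told apart.

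After 24 h with CpG, Cd44, Il2ra and Cd83 were higher on both alleles and Icosl and Cd86 were lower on both. Cd69 and Cd40 were called lower on the Cast allele, and Fas was called higher on the 129 allele. Of these, only Cd69 passed the test of a difference between the alleles given below. Cd80 had no read. By edgeR's quasi-likelihood test with Benjamini-Hochberg adjustment over all tested genes, 4 of 8 tested genes were higher and 2 lower on the 129 allele, where 28.2% of all tested genes rose and 27.0% fell. For the Cast allele the counts were 3 higher and 4 lower, against 30.7% and 31.5% of all tested genes. With the alleles summed, 4 were higher and 3 lower, against 34.2% and 34.4%. With 8 genes, these counts do not set the receptors apart from all genes tested. The median log2 change of the 8 genes was 0.50 on the 129 allele, 0.01 on the Cast allele and 0.24 in the sum, beside -0.01, -0.04 and -0.01 for all genes tested.

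**Figure D1:**
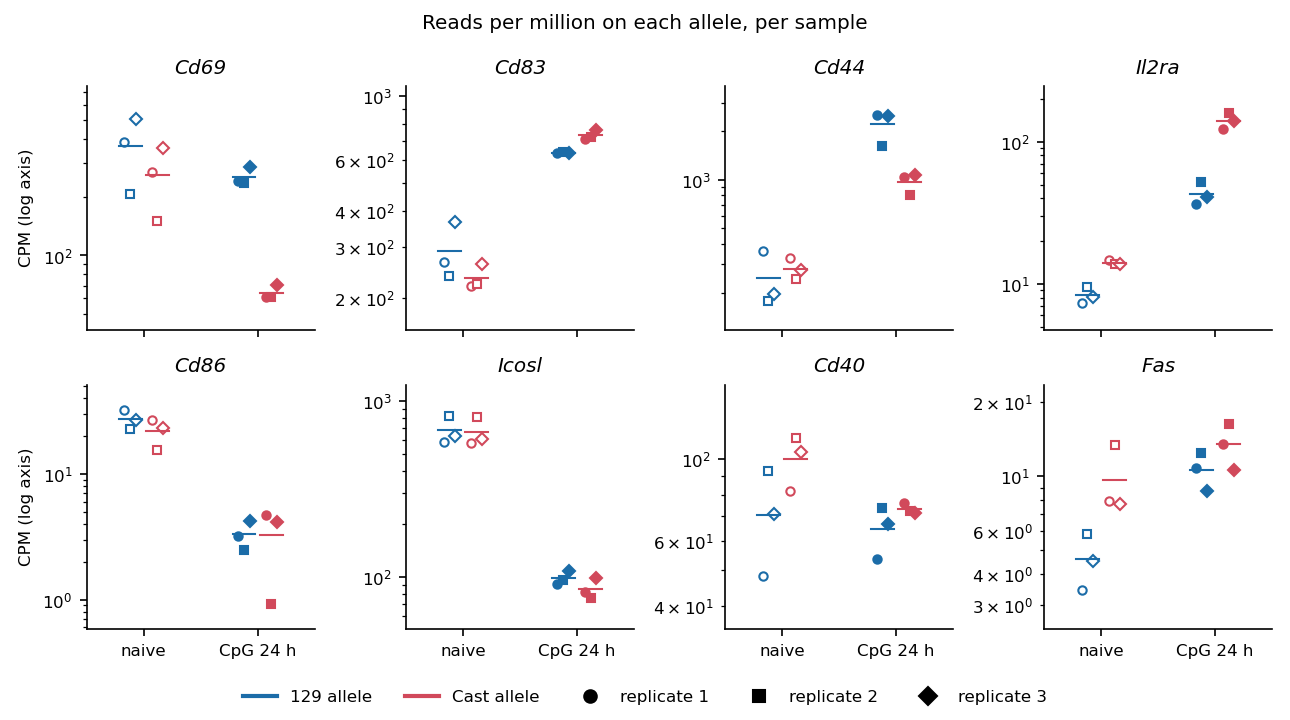
Level of each receptor gene in each sample, in TMM-scaled CPM on a log axis, for the 129 and the Cast tables; colour marks the allele, open and filled points are naive and stimulated samples, shapes mark replicates and short lines the group means (n = 3). The stimulated points of Cd44, Il2ra and Cd83 lie above all naive points on both alleles, and those of Icosl and Cd86 lie below.

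Among the B7-family ligands, Icosl fell by 2.85 and Cd86 fell by 2.85 on the log2 scale with the alleles summed (edgeR adjusted p = 5.13e-07 and 5.13e-05), and Cd80 was not detected. Icosl, the ligand of ICOS, was at 589, 827 and 635 CPM in naive replicates 1, 2 and 3 on the 129 allele and at 91.3, 96.1 and 108 CPM in the stimulated ones. Its Cast levels were 581, 809 and 607 CPM when naive and 81.6, 75.6 and 98.2 CPM when stimulated. The groups were far apart on both alleles, and naive replicate 2 was the highest on both. The fall was 6.94-fold on the 129 allele (log2 change -2.79, SE 0.16, edgeR adjusted p = 1.84e-05) and 7.81-fold on the Cast allele (log2 change -2.97, SE 0.18, edgeR adjusted p = 1.66e-06).

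Cd86, a ligand of CD28 that is widely used as a surface marker of B cell activation, was at 32.3, 22.9 and 27.1 CPM in the naive samples on the 129 allele and at 3.24, 2.48 and 4.19 CPM after stimulation. From the Cast allele the naive samples had 27.1, 15.5 and 23.2 CPM and the stimulated samples 4.73, 0.925 and 4.14 CPM. Every stimulated sample lay below every naive one, and naive replicate 1 was the highest and replicate 2 the lowest on both alleles. The fall was 8.18-fold on the 129 allele (log2 change -3.03, SE 0.31, edgeR adjusted p = 1.60e-04) and 6.64-fold on the Cast allele (log2 change -2.73, SE 0.47, edgeR adjusted p = 7.72e-04). The stimulated values rest on few reads, 9, 7 and 12 in the 129 tables and 15, 3 and 14 in the Cast tables. Macrophages and dendritic cells also express Cd86. The sum of 10 dendritic cell markers was 382 CPM, 329 CPM and 273 CPM in the naive samples and 20.5 CPM to 35.1 CPM after stimulation. Sirpa, which macrophages also express, made up most of the naive sum, at 275 ± 44.8 CPM (SD, n = 3). Of the 6 dendritic cell markers tested in the sum of alleles, 4 were lower and Ccr9 was higher (log2 change 2.94, edgeR adjusted p = 6.44e-04), and Flt3 did not pass (log2 change -0.02). Clec9a went from 2.61 CPM to 0, and Cd209a was at 0 in all 6 samples. The part of these markers, and of the macrophage markers, in the fall of Cd86 was not tested.

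Cd80, the other ligand of CD28, had 0 reads in all 12 tables. A count of 0 allows up to 0.674 CPM in the shallowest sample and 0.480 CPM in the deepest, over the reads of both alleles. The tables hold only reads that were given to a strain, so the limit applies to those and covers counting error only.

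Of the receptors of the tumour necrosis factor receptor family, Cd40 changed little, and Fas was called higher on the 129 allele and in the sum. Neither passed the test of a difference between the alleles given below. Cd40, through which the B cell receives T cell help, was at 48.2, 93.1 and 71.2 CPM in the naive samples on the 129 allele and at 53.6, 73.7 and 66.7 CPM after stimulation. The Cast allele gave 82.1, 114 and 105 CPM in the naive samples and 76.3, 72.5 and 71.3 CPM after stimulation. The groups overlapped on the 129 allele, and on the Cast allele all stimulated samples lay below the naive ones by a small margin. The log2 change was -0.13 on the 129 allele (SE 0.25, edgeR adjusted p = 0.682) and -0.45 on the Cast allele (SE 0.15, edgeR adjusted p = 0.0247). The Cast call was lost in 7 of 12 alternative fits, among them leaving out naive replicate 2, with a log2 change of -0.32 (edgeR adjusted p = 0.106), naive replicate 3 or any of the 3 stimulated samples. The sum did not pass (log2 change -0.29, edgeR adjusted p = 0.128), but it did without naive replicate 1 (log2 change -0.45, edgeR adjusted p = 0.0133).

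Fas, the death receptor bound by Fas ligand, was low in all samples, at 3.44, 5.82 and 4.51 CPM in the naive samples on the 129 allele and at 10.8, 12.4 and 8.73 CPM after stimulation. On the Cast allele the naive samples had 7.91, 13.3 and 7.73 CPM and the stimulated samples 13.6, 16.3 and 10.7 CPM. The groups were separate on the 129 allele and overlapped on the Cast allele, where naive replicate 2 was above stimulated replicate 3. The rise of 2.30-fold on the 129 allele passed the test (log2 change 1.20, SE 0.35, edgeR adjusted p = 0.0209), and the Cast value did not (log2 change 0.47, SE 0.32, edgeR adjusted p = 0.222). The 129 call rests on 8 to 14 naive reads per sample and was lost without naive replicate 1 (log2 change 1.03, edgeR adjusted p = 0.0687) or 3, without stimulated replicate 1 or 2, and with DESeq2. The rise in the sum was 1.69-fold (edgeR adjusted p = 0.0359) and was lost when the same 4 samples were left out in turn.

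The surface markers Cd69, Cd83 and Cd44 differed from each other in direction. Cd69, a lectin-like receptor that appears early in activation, was at 385, 208 and 505 CPM in the naive samples on the 129 allele and at 242, 235 and 285 CPM after stimulation. From the Cast allele it was at 269, 150 and 359 CPM before and at 60.8, 61.4 and 70.4 CPM after stimulation. On the 129 allele naive replicate 2 lay below all stimulated samples and the groups overlapped, while on the Cast allele the groups were well apart. The Cast fall was 4.03-fold (log2 change -2.01, SE 0.28, edgeR adjusted p = 2.06e-04), and the 129 value did not pass (log2 change -0.53, SE 0.31, edgeR adjusted p = 0.189). Without naive replicate 2 the 129 fall passed as well (log2 change -0.81, edgeR adjusted p = 0.00714). The sum fell 1.98-fold (edgeR adjusted p = 0.0169), and this call was lost without stimulated replicate 1 (edgeR adjusted p = 0.0568) or 2 (edgeR adjusted p = 0.0921).

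Cd83, an immunoglobulin-family surface protein, was at 266, 239 and 367 CPM in the naive samples on the 129 allele and at 633, 638 and 635 CPM after stimulation. Its Cast values were 219, 223 and 262 CPM in naive cells and 710, 719 and 761 CPM in stimulated cells. No stimulated sample came near the naive range, and the stimulated samples were close to each other on both alleles. The rise was 2.19-fold on the 129 allele (log2 change 1.13, SE 0.17, edgeR adjusted p = 9.54e-04) and 3.11-fold on the Cast allele (log2 change 1.64, SE 0.13, edgeR adjusted p = 5.86e-06).

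Cd44, the hyaluronan receptor, was at 361, 178 and 198 CPM in the naive samples on the 129 allele and at 2501, 1627 and 2477 CPM after stimulation. On the Cast allele it was at 327, 245 and 275 CPM in naive cells and at 1040, 802 and 1076 CPM after stimulation. All stimulated samples were far above the naive ones on both alleles, and stimulated replicate 2 was the lowest of its group on both. The rise was 8.96-fold on the 129 allele (log2 change 3.16, SE 0.34, edgeR adjusted p = 3.42e-04) and 3.44-fold on the Cast allele (log2 change 1.78, SE 0.17, edgeR adjusted p = 1.68e-05).

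Il2ra, the chain that turns the interleukin-2 receptor into its high-affinity form, was at 7.31, 9.56 and 8.02 CPM in the naive samples on the 129 allele and at 36.3, 52.1 and 40.8 CPM after stimulation. On the Cast allele the naive samples had 14.7, 13.7 and 13.7 CPM and the stimulated samples 122, 159 and 141 CPM. The naive samples were close to each other, and every stimulated sample was above them on both alleles. The rise was 5.16-fold on the 129 allele (log2 change 2.37, SE 0.24, edgeR adjusted p = 1.54e-04) and 9.97-fold on the Cast allele (log2 change 3.32, SE 0.16, edgeR adjusted p = 8.84e-07). T cells can carry this receptor too. The sum of 10 T cell markers was 58.5 CPM to 69.7 CPM in the naive samples and 6.77 CPM to 8.20 CPM in the stimulated samples, and 4 of 4 tested were lower. Most of the naive sum was Cd4, at 37.1 ± 12.3 CPM (SD, n = 3), while Cd3e was at 1.68 CPM and Cd2 at 0.0768 CPM. The part of T cells in the level of Il2ra was not tested.

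**Figure D2:**
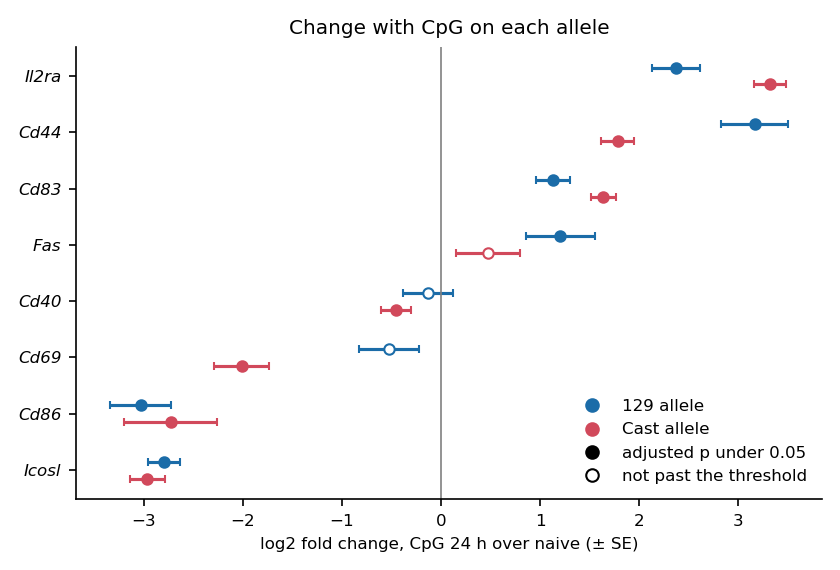
Log2 change from naive to stimulated cells on the 129 allele and the Cast allele for the 8 tested genes, with bars of 1 standard error from edgeR's quasi-likelihood fit (n = 3 a group); filled points passed an adjusted p of 0.05. Cd44 has the higher value on the 129 allele and Il2ra on the Cast allele, while Icosl and Cd86 lie near the same negative value on both.

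In the main fit, which did not pair same-numbered samples, the change with CpG differed between the alleles for 2 of the 8 genes. The macrophage markers also fell between these groups, as given above, and their part in this difference was not tested. A change of the Cast-to-129 read ratio with CpG was fitted as an allele by treatment term with edgeR over 9783 genes, of which 1.04% were called in either direction. Cd69 and Cd44 were called, both toward 129. For Cd69 the Cast share in naive replicates 1, 2 and 3 was 44.3%, 45.4% and 45.3%, with 95% Wilson bounds of 41.9 and 46.8, 42.2 and 48.7, and 43.0 and 47.6. After stimulation the share was 22.3%, 23.1% and 22.6%, with bounds of 19.6 and 25.2, 20.4 and 26.0, and 20.2 and 25.2. The share was nearly constant within each group, also across the naive samples whose level of Cd69 differed most. The log2 change of the ratio was -1.48 (SE 0.09, edgeR adjusted p = 0.00102), and it stayed past the threshold in all 9 alternative fits.

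Before stimulation the Cast share of Cd44 was 50.8%, 61.3% and 61.9%, with 95% Wilson bounds of 48.4 and 53.2, 58.4 and 64.1, and 58.9 and 64.8. After it the share was 32.2%, 36.2% and 33.9%, with bounds of 31.3 and 33.1, 35.1 and 37.3, and 33.0 and 34.8. The groups did not overlap, and naive replicate 1 stood below the other naive samples. The log2 change of the ratio was -1.42 (SE 0.19, edgeR adjusted p = 0.0325). This call was lost without naive replicate 2 (edgeR adjusted p = 0.135), naive replicate 3 (0.0991), or stimulated replicate 1 (0.134), 2 (0.117) or 3 (0.139), and kept without naive replicate 1. The log2 change lay between -1.31 and -1.49 in those 5 fits.

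Il2ra and Cd83 moved toward Cast. The Cast share of Il2ra was 69.6%, 62.3% and 66.7% in the naive samples, on 48 to 61 reads, and 79.3%, 77.8% and 80.3% after stimulation, on 488 to 661 reads. That of Cd83 was 48.5%, 51.8% and 45.5% before and 56.2%, 56.4% and 58.6% after stimulation. Neither pair of groups overlapped. The log2 changes of the ratio were 0.96 for Il2ra (SE 0.19, edgeR adjusted p = 0.0863) and 0.49 for Cd83 (SE 0.11, edgeR adjusted p = 0.106), which did not pass. With the replicate block, which pairs same-numbered samples, both passed (edgeR adjusted p = 0.0247 and 9.97e-05).

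For the other genes the change of the ratio did not pass: Fas -0.72 (SE 0.35), Cd40 -0.34 (SE 0.20), Icosl -0.17 (SE 0.09) and Cd86 0.24 (SE 0.47) on the log2 scale, with edgeR adjusted p from 0.508 to 0.975. Icosl had Cast shares of 52.9% ± 0.133 and 49.9% ± 2.18 (SD, n = 3) in naive and stimulated cells, and Cd40 had 62.6% ± 3.77 and 56.9% ± 4.53. Fas went from 70.5% ± 3.36 to 59.4% ± 0.734, and Cd86 from 47.6% ± 3.28 to 48.8% ± 16.8 on the few stimulated reads named above. As a background, the Cast share over all autosomal genes was 51.9% to 53.6% in the 6 samples. Compared over samples, the share did not overlap between the groups for 6 of the 8 genes. Each of these had a two-sided exact permutation p of 0.1, the smallest that 3 against 3 samples allow (0.133 after adjustment over the 8 genes). How often the groups do not overlap among all autosomal genes was not counted, so this count does not set the receptors apart.

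**Figure D3:**
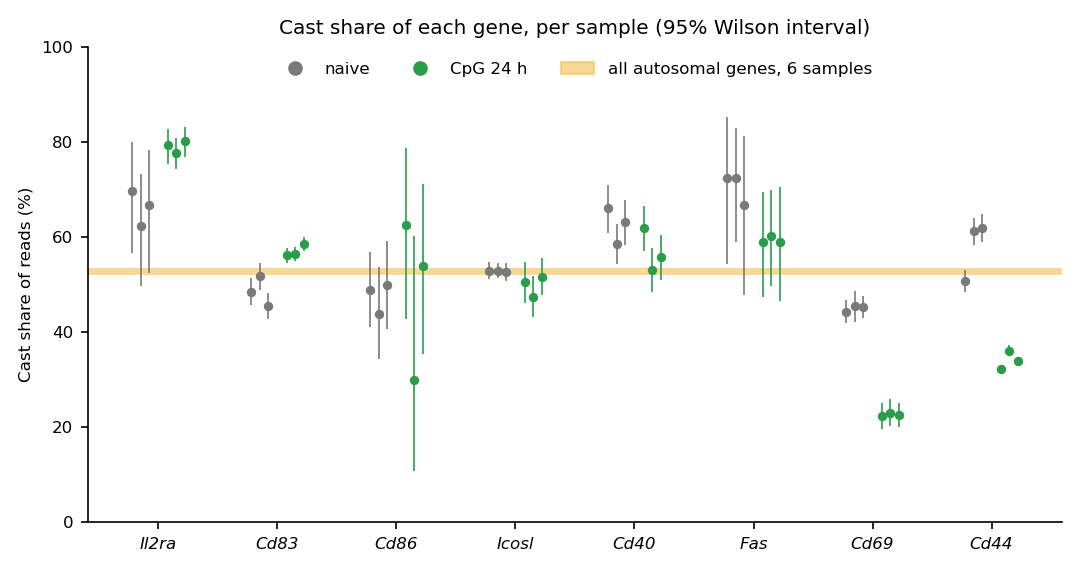
Cast share of the reads of each receptor gene, in percent, in the naive and stimulated samples; points are samples with 95% Wilson intervals, and the band spans the share over all autosomal genes. Cd69 and Cd44 drop to between 22.3% and 36.2% after stimulation, and Il2ra rises to between 77.8% and 80.3%.

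The naive level of several of these genes varied between replicates, and the spread was set beside that of the macrophage and B cell markers. The distance from the lowest to the highest naive sample had a median of 0.49 on the log2 scale over all genes tested on the 129 allele and 0.46 on the Cast allele. For the macrophage markers the medians were 1.30 and 1.10 over 17 genes each, and 13 and 16 of the 17 were highest in naive replicate 1. For the 11 B cell markers they were 0.36 and 0.44, and 10 and 8 of the 11 were highest in naive replicate 2.

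Cd69 had the widest naive spread of the 8 genes, 1.28 on the 129 allele and 1.25 on the Cast allele. It was highest in replicate 3 and lowest in replicate 2 on both, and 85.7% and 91.1% of all tested genes had a smaller spread. This order was not that of the macrophage sum or of the B cell sum. It was that of the neutrophil and monocyte markers, which summed to 10.3 CPM, 6.45 CPM and 30.7 CPM in naive replicates 1, 2 and 3 over 7 genes, and of the erythroid and platelet markers, at 42.3 CPM, 34.1 CPM and 77.1 CPM over 5 genes. In the stimulated samples these lists summed to 0.616 CPM to 0.798 CPM and 1.23 CPM to 2.99 CPM, and their part in the naive level of Cd69 was not tested. Cd86 and Cd44 were highest in naive replicate 1, then in 3 and lowest in 2 on both alleles. This is the order of the macrophage sum and also of the T cell sum. The spreads were 0.49 and 0.79 for Cd86 and 1.02 and 0.42 for Cd44, on the 129 and the Cast allele. The part of macrophage RNA in the naive levels of Cd86 and Cd44 was not tested.

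Icosl and Cd40 were highest in naive replicate 2, then in 3 and lowest in 1 on both alleles. This was the order of the B cell marker sum, in which replicates 1 and 3 were close, and also of the natural killer cell and stroma sums. The spreads were 0.49 and 0.48 for Icosl and 0.94 and 0.48 for Cd40. Fas was also highest in replicate 2 on both alleles, with spreads of 0.70 and 0.76 on at most 37 reads per table. Cd83 was highest in replicate 3 on both alleles (0.62 and 0.26), and on the 129 allele it had the order of Cd69. Il2ra varied least, by 0.37 and 0.10, and its order differed between the alleles. With 3 naive samples, an order is shared easily, and no test was made of it.

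**Figure D4:**
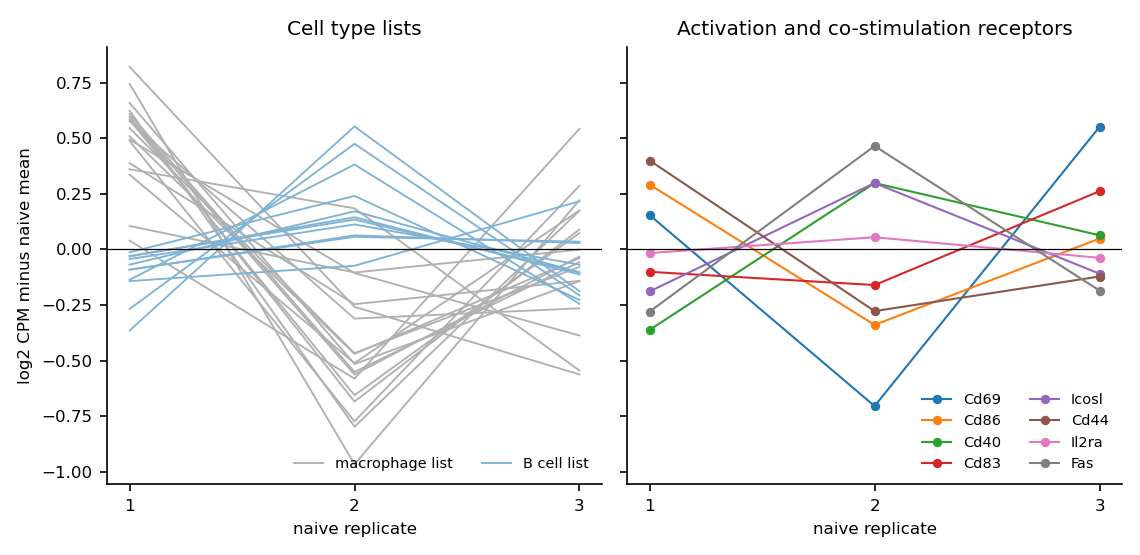
Deviation of each naive sample from the mean of the 3 naive samples, on the log2 CPM scale with the alleles summed; each line is a gene, of the macrophage and B cell marker lists with at least 10 naive reads on average (left) or of the receptors (right). Cd86 and Cd44 are highest in replicate 1, as most macrophage markers are (Cd14 is highest in replicate 3), and Cd40 and Icosl are highest in replicate 2, as all B cell markers but Ebf1 are.

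Related genes were counted in lists, beside 34.2% higher and 34.4% lower among all genes tested in the sum; no test set a list apart from all genes. Of 24 other costimulatory and inhibitory ligands and receptors, 20 were tested in the sum of alleles, 3 were higher and 15 lower, with a median log2 change of -1.23. Havcr1, which encodes TIM-1, rose by 1.90 (SE 0.12, edgeR adjusted p = 1.09e-06), and Lgals9, the lectin galectin-9, rose by 0.79 (SE 0.11, edgeR adjusted p = 1.45e-04). Vsir, which encodes the inhibitory receptor VISTA, fell by 3.26 on the log2 scale and Cd84, a SLAM-family receptor, fell by 1.84. Myeloid cells also carry VISTA, and the part of the macrophage markers in its fall was not tested.

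Of 16 other tumour necrosis factor receptors and TRAF adaptors, 13 were tested, 3 were higher and 7 lower, with a median of -0.79. Traf1, an adaptor of these receptors, rose by 1.00 (SE 0.20, edgeR adjusted p = 0.00235). Tnfrsf1a, a receptor of tumour necrosis factor, went from 28.6 ± 7.50 CPM to 0.130 ± 0.225 CPM (SD, n = 3). Its log2 change was -7.48, beside a median of -8.07 for the macrophage markers, whose part in this fall was not tested. Tnfrsf18, which encodes GITR, fell by 2.03 on the log2 scale. Of 10 genes of the Fas pathway, 8 were tested, with 3 higher and 3 lower. The caspase Casp8 rose by 0.83, while Fcmr, the receptor of IgM, fell by 4.53 and Faim, an inhibitor of Fas-driven death, fell by 1.32. The edgeR adjusted p of these 3 genes ranged from 1.23e-04 to 5.48e-04.

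Among 18 other cytokine receptor genes, 14 were tested, 0 were higher and 11 lower, with a median of -1.47, so Il2ra rose beside a list in which no tested gene was called higher. Il9r fell by 5.27 and Il6ra fell by 3.92 on the log2 scale. Of 20 other surface markers of activation or rest, 17 were tested, 6 were higher and 10 lower, with a median of -0.92. Tfrc, the transferrin receptor, rose by 2.56 and Cd24a rose by 1.77, the latter uncertain because near-identical copies exist. Mean levels of Cd24a in naive and stimulated samples were 2251 and 7525 CPM in the 129 tables. In the Cast tables they were only 15.6 and 28.3 CPM, so its summed rise is mostly that of the 129 reads. The integrin chain Itga4 fell by 2.50.

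The direct partners of these receptors were a mixed group. S1pr1, the receptor that CD69 holds inside the cell, fell from 539 ± 169 CPM to 25.4 ± 7.06 CPM (SD, n = 3), and its log2 change was -4.41 (SE 0.31, edgeR adjusted p = 7.79e-06). Of the kinases and factors below the interleukin-2 receptor, Jak3 fell by 0.82 (edgeR adjusted p = 6.66e-04), while Jak1 (0.03), Stat5a (0.18) and Stat5b (-0.32) did not pass. The T cell partners had low counts: Cd28 was at 2.90 CPM in naive cells and 0.195 CPM in stimulated cells, Icos at 6.94 CPM and 4.86 CPM, Ctla4 at 1.04 CPM and 1.19 CPM, and Cd40lg had 0 reads. In all, 7 of 11 partner genes were tested, with 0 higher and 3 lower.

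The genes whose pattern over the 6 samples was most like that of each receptor were found by the root-mean-square distance of centred log2 CPM among 7909 autosomal genes. For Cd83 the nearest was Taf1d, at 0.049, followed by Cpsf3l and Fam96b. For Icosl it was Ralgps2 (0.071), then Smim14 and Zbtb4, and for Cd44 it was Eif5a (0.089), then Pabpc4 and Car13. Cd40 lay nearest to Nprl3 (0.085), Tcf4 and Lclat1. Il2ra lay nearest to Spc25 (0.11), Aars and Phf19, and Fas to Ngdn (0.11), Def8 and Ift22. The nearest genes were farther away for Cd69, with Fhl3 at 0.15, then Rbm48 and Cept1, and for Cd86, with Abcb4 at 0.18, then Fam101b and Acrbp.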

How the data were processed

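Total RNA was extracted with TRIzol and made into libraries with a stranded Illumina TruSeq total RNA kit, per the labels' protocols. Each of the 6 samples had 2 deposited tables of whole-number read counts per gene, 1 for the 129S1 and 1 for the Cast annotation, with no normalization. The submitters' processing notes name STAR, featureCounts, Subread 2.0.0 and mm10 without saying what each was used for. How a read was given to a strain and the strand setting are not given in the sources used here. Rows that name no gene stayed out of library sizes and tests. Of the aligned reads for 129, the row for no gene held 62.6% to 67.1% in naive and 48.1% to 56.7% in stimulated samples. For Cast it held 57.9% to 62.1% and 44.5% to 52.3%, so this share moved with the groups. The row for reads not aligned held 78.9% to 84.2% of the reads for 129 and 78.5% to 83.6% for Cast. Chi-square per degree of freedom between replicates of a group was 5.96 to 15.7, above sampling noise, so none was a repeat of another.

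Samples were grouped by their labels. Genes were matched between tables by name. The tables of each allele and their sum were tested separately with edgeR 4.0.16 in R 4.3.3 (quasi-likelihood test, TMM factors, filterByExpr, Benjamini-Hochberg adjustment at 0.05 over all genes tested), and the ratio of alleles as an interaction term with a term for each sample. The fits were tested on simulated data. Standard errors were derived from the F statistic. Cast shares carry 95% Wilson intervals, and intervals and limits from a count of 0 speak for counting error alone, as the reads carry no molecular identifiers and are not independent. Alternatives were DESeq2 1.42.0, other scalings and filters, the replicate block and leaving out each sample.

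All 9 receptor genes are named. From the other lists up to 2 rises and 2 falls are named, the largest among genes called in the same direction on both alleles with a mean of at least 50 reads, as well as all partner genes. Some genes that this rule selects are not reported here. The receptor genes and the lists were chosen with earlier results of these data known. Of the listed genes 15 symbols had no match. Other marker lists summed, in naive and stimulated samples, to 15.5 to 23.3 CPM and 2.67 to 5.78 CPM (natural killer cells), 470 to 703 CPM and 523 to 595 CPM (plasma cells), and 319 to 344 CPM and 92.5 to 127 CPM (stroma). Replicate numbers come from the sample titles. Same-numbered naive and stimulated samples deviated together from their group means. The correlations were 0.542, 0.432 and 0.594 for 129, 0.209, 0.151 and 0.232 for Cast and 0.173, 0.151 and 0.203 in the sum. The numbers were therefore taken to pair the samples in the replicate block, an alternative fit. The main fits left this pairing out.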

Additional observations from a re-analysis of the deposited data

Results flagged for a closer look

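The change with CpG differed between the alleles for Cd69 and Cd44 by the test of the difference itself, the interaction term in edgeR. The Cast-to-129 ratio changed by -1.48 (log2) for Cd69, on 863 to 1843 reads per sample over both alleles. For Cd44 it changed by -1.42 (log2), on 1035 to 10731 reads per sample. The call of Cd69 was kept in all 9 alternative fits. That of Cd44 was lost in 5 of the 9, each with 1 sample left out, so it is the weaker of the calls.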

How the results depend on the processing

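The number of genes called stayed within 1.5 times under every alternative for the 129 tables (5842, and 5216 to 5477 with 1 sample left out in turn), the Cast tables (6445, and 5987 to 6319) and the sum of alleles (7105, and 6603 to 7067). For the ratio of alleles it was 102, and it moved to 779 in the paired fit with the replicate block and to between 15 and 30 with 1 sample left out in turn. At an unadjusted p under 0.05 the ratio test called 1155 genes. The replicate block changed no other call of a receptor gene than those of Il2ra and Cd83 given above. Upper-quartile scaling moved the median of all genes to -0.16, -0.17 and -0.18 (log2) in the 129 tables, the Cast tables and the sum. Under it Cd40 in the sum was called lower (log2 change -0.46, edgeR adjusted p = 0.0279) and the call of Fas in the sum was lost (0.59, edgeR adjusted p = 0.0915). Without a filter on low counts the fall of Cd69 in the sum (-0.95, edgeR adjusted p = 0.0932) and that of Cd40 on the Cast allele (-0.38, edgeR adjusted p = 0.0563) were lost. The change of the Cast share of Cd86, 1.16 points, lay between -5.70 and 10.6 points with 1 sample left out in turn. It turned negative when naive replicate 2 (-0.708), stimulated replicate 1 (-5.70) or stimulated replicate 3 (-1.37) was left out, and the stimulated share rests on 10 to 26 reads per sample. What caused these shifts was not tested. The directions of Icosl, Cd86, Cd83, Cd44 and Il2ra on each allele, and their calls, were kept in all 12 alternatives. Depth limits Fas, Cd86 and Cd80 most.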

Other observations

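Of the 77 tested genes in the other receptor lists, 5 changed their allele ratio with CpG, of which 4 are given here. Cd38, a surface enzyme that uses NAD, lost on the Cast allele, with 344 ± 21.5 CPM in naive and 106 ± 8.33 CPM in stimulated cells there and 991 ± 86.2 CPM and 646 ± 64.4 CPM on the 129 allele (SD, n = 3). The log2 change of its Cast-to-129 ratio was -1.09 (edgeR adjusted p = 0.00529). The ratio also went toward 129 for Vsir (-1.26, edgeR adjusted p = 0.0363), for Il6ra, the interleukin-6 receptor (-2.53, edgeR adjusted p = 0.0374), and for its signalling partner Il6st (-1.06, edgeR adjusted p = 0.0374). The stimulated Cast level of Il6ra was 1.75 ± 1.29 CPM (SD, n = 3), so its ratio after stimulation rests on few reads. The ratio changes of these 4 genes were not recomputed under other settings.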
